A study of Rattus norvegicus with 10 samples.

Results

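The 10 genes described here carry phosphate across the membranes of renal tubule cells, hold the carriers in place or receive the hormones that control them. They are the sodium-phosphate cotransporters *Slc34a1*, *Slc34a2*, *Slc34a3*, *Slc20a1* and *Slc20a2*, the phosphate exporter *Xpr1*, the scaffold proteins *Slc9a3r1* and *Pdzk1*, and the receptors *Pth1r* and *Fgfr1*. They were chosen by symbol, all 10 were found among the 32545 genes of the deposited expression table, and all 10 passed the filter on low values. Their expression was measured by RNA-seq in the kidney cortex of 10 PCK rats, 5 of each sex, with 1 library per rat. The PCK rat (colony PCK/CrljCrl-Pkhd1pck/Crl) carries a mutation in *Pkhd1* and models autosomal recessive polycystic kidney disease (ARPKD), in which tubules widen into cysts. Both sexes carried the mutation, no treatment was given, and rats without the mutation were not analysed here, so the comparison is of females with males within the disease model. The methods give an age of 10 to 12 weeks and the design text of the series 12 to 14 weeks. They came from 2 litters, whose assignment to rats was not used here. The labels name the tissue only as kidney, while the methods name it as cortex, snap frozen after the kidneys were flushed.

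Most phosphate filtered by the glomerulus is taken back in the proximal tubule, where sodium-coupled carriers in the brush border bring it into the cell. Parathyroid hormone and the bone hormone FGF23 lower this uptake by removing carriers from the brush border, the first through *Pth1r* and the second through FGF receptors with the coreceptor Klotho (*Kl*). The amount of carrier in the membrane is set largely after transcription, and RNA levels give no measure of it.

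The libraries held 13912569 to 20285911 reads on genes in males (median 14387669) and 14963924 to 19556707 in females (median 15896262). Values are FPKM, in which fragments are divided by gene length, so that levels can be compared between genes, and scaled between libraries. Factors computed from the FPKM by median ratios came to 1.01 in each of the 10 libraries, so the deposited values were already on a median-ratio scale rather than on one of total reads. A single read on a gene of 1 kb was worth 0.0486 to 0.0710 FPKM, and the fewest reads on any of the 10 genes in a library were 414, on *Xpr1* in a male. Mitochondrial genes took 15.1% to 17.0% of reads in males and 14.3% to 26.8% in females, with the highest share in female 2. All 10 proximal tubule markers were detected in every group, with levels that summed to between 1611 and 2271 FPKM in males and between 1209 and 2271 FPKM in females. The mean log2 level of these markers differed by -0.01 between females and males (two-sided exact permutation test, p = 0.960). Single markers of this list went both ways: *Cubn* was higher in females (log2 fold change 0.72, limma adjusted p = 0.0467), while *Slc22a6* and *Aqp1* had log2 fold changes of -0.53 and -0.56 and did not pass (limma adjusted p = 0.160 and 0.233). The 4 fibroblast markers had a lower mean log2 level in females, by 0.85 (two-sided exact permutation test, p = 0.00794, the smallest that 5 against 5 rats allow). Markers of the distal convoluted tubule, of principal cells and of intercalated cells had a higher mean log2 level in females, by 0.61, 0.35 and 0.54 (p = 0.00794, 0.0317 and 0.0159 by the same exact test), with *Pvalb* at 0 in every library. The part of cell composition in the values below was not tested.

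The start regions of 5 of the genes are printed because their levels rose and fell together between rats (*Slc34a1*, *Slc34a3*, *Pdzk1* and *Pth1r*) or did not follow them (*Slc34a2*), as described further on. Each is the 250 bases before the start given in the RefSeq promoter table for the rat build GRCr8, 5′ to 3′ on the strand of the gene. All 10 genes were matched in RefSeq by symbol or synonym (*Slc9a3r1* is listed as *Nherf1*), and start regions were read for 7 of them. Capitals mark matches, on either strand, to GTTAAT (a short site of the proximal tubule factor HNF1) or CAAAGTCCA (an element of HNF4). They also mark TATAAA (a form of the TATA box) and AGGTCA (a short site of nuclear receptors). Other forms of these sites were not searched for. The motifs were picked after the sequences were seen.

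*Slc34a1*, chr17:9238984-9239233, minus strand: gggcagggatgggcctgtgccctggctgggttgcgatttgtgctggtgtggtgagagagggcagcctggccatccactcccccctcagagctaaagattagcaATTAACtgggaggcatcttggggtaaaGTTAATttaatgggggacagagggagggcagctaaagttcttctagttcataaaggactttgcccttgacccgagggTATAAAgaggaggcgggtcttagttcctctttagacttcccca
*Slc34a3*, chr3:28447998-28448247, minus strand: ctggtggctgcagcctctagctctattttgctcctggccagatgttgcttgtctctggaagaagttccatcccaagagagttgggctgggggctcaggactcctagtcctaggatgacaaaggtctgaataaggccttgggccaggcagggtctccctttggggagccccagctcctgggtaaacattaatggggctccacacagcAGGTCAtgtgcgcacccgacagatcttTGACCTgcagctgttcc
*Pdzk1*, chr2:187064745-187064994, plus strand: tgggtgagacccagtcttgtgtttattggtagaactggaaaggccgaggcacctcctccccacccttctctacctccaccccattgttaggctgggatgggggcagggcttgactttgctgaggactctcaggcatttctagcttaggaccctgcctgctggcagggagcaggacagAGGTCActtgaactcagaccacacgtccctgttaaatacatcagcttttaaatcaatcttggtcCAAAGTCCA
*Pth1r*, chr8:119595572-119595821, minus strand: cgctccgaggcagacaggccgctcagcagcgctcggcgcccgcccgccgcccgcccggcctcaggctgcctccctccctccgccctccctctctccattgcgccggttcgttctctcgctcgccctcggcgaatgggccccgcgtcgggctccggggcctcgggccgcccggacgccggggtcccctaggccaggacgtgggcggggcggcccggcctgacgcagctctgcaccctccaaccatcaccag
*Slc34a2*, chr14:62143073-62143322, minus strand: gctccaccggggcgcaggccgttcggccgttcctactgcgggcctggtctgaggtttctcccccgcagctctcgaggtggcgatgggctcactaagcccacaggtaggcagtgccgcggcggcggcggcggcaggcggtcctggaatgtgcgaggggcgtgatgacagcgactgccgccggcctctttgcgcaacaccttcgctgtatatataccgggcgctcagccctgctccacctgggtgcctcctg

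The *Slc34a1* window held the HNF1 site at 120 bases before the start and, on the other strand, at 147, and TATAAA at 43. The *Slc34a3* window held the nuclear receptor site at 44 bases and, on the other strand, at 17. The *Pdzk1* window held the HNF4 element at 9 bases and the nuclear receptor site at 73. The windows of *Pth1r* and *Slc34a2* held none of the letters searched for. Of the windows read but not printed, that of *Xpr1* held the nuclear receptor site at 240 bases and that of *Slc9a3r1* held none. The *Slc34a2* window does hold the letters tatatata, which were not searched for. The *Slc34a2* window lies inside the RefSeq span of the gene. Of 33469 start regions of the same length in the table, 6.45% held the HNF1 site and 0.338% the HNF4 element. The letters TATAAA were held by 12.9% and the nuclear receptor site by 14.1%. These are matches of letters, and binding was not measured.

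None of the 10 genes passed the test between the sexes. With limma on log2(FPKM + 0.1), 0 of 10 had an adjusted p of at most 0.05, and 1 of 10, *Slc34a2*, had an unadjusted p under 0.05, against 15.7% of all genes. With limma-voom on reads recovered from the FPKM, 0 of 10 passed as well. Over the 17631 genes tested, 2.40% passed this threshold, 1.26% with higher and 1.14% with lower levels in females. Asking also for an absolute fold change of 1 or more on the log2 scale, as in the methods of the study, left 0 of 10 genes against 1.32% of all genes. The ranges of the sexes overlapped for all 10, while they did not overlap for 5.10% of all genes. By the exact permutation test of the mean FPKM, 0 of 10 had a p of at most 0.05, against 14.8% of all genes. The median log2 fold change of the 10 genes, females over males, was -0.02, beside -0.01 for all genes, with 4 above and 6 below 0. With 5 rats of each sex, the 95% intervals of the log2 fold change reached from -0.27 to 0.08 for *Fgfr1*, the narrowest, and from -2.08 to -0.24 for *Slc34a2*, the widest.

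**Figure D1:**
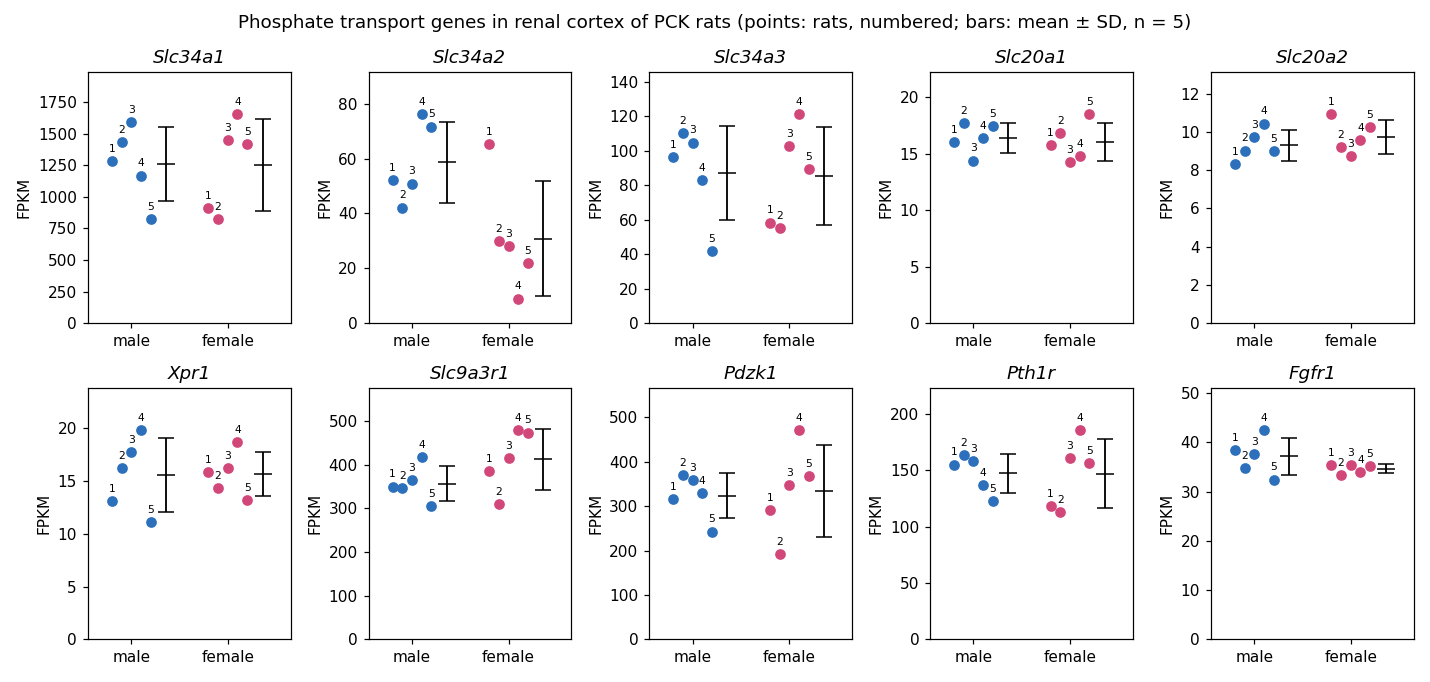
Expression of the 10 phosphate transport genes in FPKM (vertical axis from 0, 1 panel per gene) in male and female PCK rats. Points are rats, numbered as labelled, and bars give the mean ± SD (n = 5). The sexes overlap in every panel, and *Slc34a2* shows the widest spread relative to its mean, from 8.98 FPKM in female 4 to 76.3 FPKM in male 4.

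*Slc34a1* encodes NaPi-IIa, the main phosphate carrier of the proximal tubule brush border. It lies on chromosome 17 from 9747752 to 9762813 on the minus strand (Rnor_6.0, ENSRNOG00000015262) and ranked 30 among all genes by mean FPKM, the highest of the 10. In males 1 to 5 its expression was 1286, 1436, 1593, 1168 and 824 FPKM. In females 1 to 5 it was 911, 826, 1453, 1658 and 1419 FPKM. Male 5 and females 1 and 2 were low and the other rats high, so each sex held rats at both ends. The means were 1262 ± 292 FPKM in males and 1253 ± 364 FPKM in females (SD, n = 5 each), and the difference was within the spread of each sex (two-sided exact permutation test, p = 0.968). The log2 fold change of females over males was -0.03, with a 95% interval of -0.57 to 0.51 (limma adjusted p = 0.974). Between 29375 and 74083 reads per library fell on the gene, so counting error was small beside the spread between rats.

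*Slc34a3* encodes NaPi-IIc, the second brush border carrier, whose loss in people causes phosphate wasting. It lies on chromosome 3 from 2448381 to 2453933 on the minus strand (ENSRNOG00000010451). Its levels were 96.3, 110, 105, 82.8 and 41.9 FPKM in males 1 to 5, and 58.3, 55.3, 102, 121 and 89.2 FPKM in females 1 to 5. Male 5 and females 1 and 2 were again the lowest. The means of 87.2 ± 27.3 and 85.3 ± 28.5 FPKM did not differ beyond this spread (SD, n = 5 each, two-sided exact permutation test, p = 0.921), and the interval of the log2 fold change ran from -0.67 to 0.62. *Slc34a1* was 13 to 19.6 times as high as *Slc34a3* in males and 13.7 to 15.9 times in females, and the ratio of male 5 was the highest.

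*Slc34a2* encodes NaPi-IIb, best known from the small intestine and lung. It lies on chromosome 14 from 60256712 to 60276794 on the minus strand (ENSRNOG00000004626). Its levels were 52.1, 42.1, 50.9, 76.3 and 71.6 FPKM in males 1 to 5, and 65.2, 30.0, 28.0, 8.98 and 21.9 FPKM in females 1 to 5. Females 2 to 5 lay below all males, while female 1 lay above 3 of the 5 males. The means were 58.6 ± 14.6 FPKM in males and 30.8 ± 20.9 FPKM in females (SD, n = 5 each). The log2 fold change of females over males was -1.16, with a 95% interval of -2.08 to -0.24, which is 2.23 times as high in males on the fitted scale. The difference did not pass the test over all genes (limma adjusted p = 0.198), nor the exact permutation test of the mean FPKM (two-sided, p = 0.0556). The exact p was 0.0159 without female 1 and 0.0317 without male 2, and up to 0.111 without other rats, while the limma adjusted p stayed between 0.0583 and 0.363 when each rat was left out. Between 678 and 6710 reads per library fell on the gene.

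The mean level of injured tubule markers moved with *Slc34a2*, although not every marker followed it closely. The list held *Havcr1* (KIM-1, a receptor on damaged proximal tubule cells), *Lcn2*, *Vcam1*, *Spp1* and *Krt20*, of which *Krt20* was at or near 0 and did not pass the filter. *Havcr1* stood at 35.2, 28.0, 28.3, 105 and 68.1 FPKM in males 1 to 5 and at 55.2, 23.4, 24.8, 3.38 and 12.6 FPKM in females 1 to 5. Males 4 and 5 and female 1 were the highest and female 4 the lowest, as for *Slc34a2*. *Lcn2* stood at 52.1, 41.7, 49.9, 84.6 and 93.3 FPKM in males and at 58.5, 83.9, 33.9, 5.85 and 20.8 FPKM in females, so that female 2 was high in *Lcn2* but not in *Slc34a2*. *Vcam1* stood at 9.98, 8.64, 7.64, 6.56 and 12.0 FPKM in males and at 5.55, 9.64, 6.02, 4.09 and 5.53 FPKM in females, and male 4 and female 1, both high in *Slc34a2*, were not high in *Vcam1*. The summed level of the list lay between 3279 and 7180 FPKM in males and between 902 and 5572 FPKM in females, most of it from *Spp1*. None of the 4 markers tested passed the adjusted threshold (2.40% of all genes) and 1, *Vcam1*, had an unadjusted limma p under 0.05 (15.7% of all genes). The female minus male difference of their mean log2 level was -0.97 (two-sided exact permutation test, p = 0.0952). Across the 10 rats, *Slc34a2* and the mean log2 level of these markers had a Pearson r of 0.95 (permutation p = 0.00015, adjusted 0.00087) and a Spearman rho of 0.92 (permutation p = 0.00056, adjusted 0.00541). The r was 0.96 within males and 0.93 within females, and 0.79 without females 4 and 5, the rats farthest from the median of the marker level. This relation is 1 of 29 computed, all chosen after the data were seen, and p-values were adjusted over the 29 by Benjamini-Hochberg. The permutations shuffled rats across the sexes, so a sex difference shared by *Slc34a2* and the markers enters these p-values. No p was computed within the sexes. Female 4 was also the lowest rat in the mean log2 level of the fibroblast markers (3.87) and of the leukocyte markers (1.35). Female 1 and male 4, both high in *Slc34a2*, went the other way. Female 1 lay below all males in the fibroblast markers (4.82), and male 4 was the lowest male in the leukocyte markers (2.34). No r of *Slc34a2* with these 2 lists was computed. In whole tissue, fewer cells of a type and less RNA per cell cannot be told apart, and the part of injured cells in the *Slc34a2* values was not tested.

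*Slc20a1* and *Slc20a2* encode the carriers PiT-1 and PiT-2, which most tissues use to supply cells with phosphate, and PiT-2 is also found in the brush border. *Slc20a1* lies on chromosome 3 from 121725859 to 121739173 on the plus strand (ENSRNOG00000018567) and *Slc20a2* on chromosome 16 from 74317899 to 74408030 on the minus strand (ENSRNOG00000019490). *Slc20a1* stood at 16.0, 17.7, 14.4, 16.4 and 17.5 FPKM in males and at 15.7, 16.8, 14.2, 14.8 and 18.5 FPKM in females. Its means were 16.4 ± 1.33 and 16.0 ± 1.71 FPKM (SD, n = 5 each, two-sided exact permutation test, p = 0.698). *Slc20a2* stood at 8.33, 9.03, 9.72, 10.4 and 8.99 FPKM in males and at 11, 9.20, 8.75, 9.57 and 10.3 FPKM in females. Its means were 9.30 ± 0.805 and 9.75 ± 0.875 FPKM (SD, n = 5 each, two-sided exact permutation test, p = 0.405). The rats of 1 sex were close together in both genes, with a coefficient of variation of 8.11% to 10.7%, against 23.2% to 33.3% for *Slc34a1* and *Slc34a3*. The interval of the log2 fold change ran from -0.24 to 0.17 for *Slc20a1* and from -0.13 to 0.27 for *Slc20a2*.

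Together the 5 cotransporters came to 1433 ± 307 FPKM in males and 1395 ± 377 FPKM in females (SD, n = 5 each). *Slc34a1* made up 87.7% ± 1.83 of this sum in males and 89.4% ± 2.36 in females. *Slc34a3* made up 5.96% ± 0.970 and 6.04% ± 0.490, and *Slc20a1* and *Slc20a2* together less than *Slc34a3* in every rat. The share of *Slc34a2* was 4.42% ± 2.06 in males and 2.60% ± 2.21 in females, and it ran from 2.61% in male 2 to 7.43% in male 5 and from 0.495% in female 4 to 6.15% in female 1. In male 5 and female 1 the *Slc34a2* share was above the *Slc34a3* share. These shares describe RNA per length, not protein, and no test was run on them.

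*Xpr1* encodes the only known exporter of phosphate from animal cells. It lies on chromosome 13 from 72918552 to 73056785 on the minus strand (ENSRNOG00000000042), and the span holds a 5S ribosomal RNA gene on the other strand. Its levels were 13.1, 16.2, 17.7, 19.8 and 11.1 FPKM in males and 15.8, 14.4, 16.2, 18.7 and 13.2 FPKM in females. The female values lay inside the male range, and the means of 15.6 ± 3.51 and 15.7 ± 2.09 FPKM did not differ beyond the spread (SD, n = 5 each, two-sided exact permutation test, p = 0.952). The log2 fold change was 0.03, with an interval of -0.32 to 0.37.

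The scaffolds *Slc9a3r1* (NHERF1) and *Pdzk1* (NHERF3) bind the tails of brush border carriers through PDZ domains, and NHERF1 anchors NaPi-IIa and links it to the parathyroid hormone receptor. *Slc9a3r1* lies on chromosome 10 from 103713045 to 103730145 (ENSRNOG00000003232) and *Pdzk1* on chromosome 2 from 198965685 to 198999323 (ENSRNOG00000000096), both on the plus strand. *Slc9a3r1* stood at 350, 346, 365, 417 and 305 FPKM in males and at 385, 310, 415, 479 and 474 FPKM in females. Females 4 and 5 lay above all males and female 2 near the bottom of the male range. The means were 357 ± 40.7 and 413 ± 69.6 FPKM (SD, n = 5 each, two-sided exact permutation test, p = 0.151), and the p was 0.0397 without female 2. The log2 fold change of 0.20, the highest among the 10, had an interval of -0.10 to 0.50 (limma adjusted p = 0.530). The limma adjusted p was 0.183 without female 2 and up to 0.750 without other rats. *Pdzk1* stood at 316, 371, 359, 329 and 243 FPKM in males and at 291, 193, 347, 472 and 369 FPKM in females. Females held both the highest and the lowest value of *Pdzk1*, and the means of 324 ± 50.2 and 334 ± 103 FPKM gave a log2 fold change of 0.00 (SD, n = 5 each, two-sided exact permutation test, p = 0.857). Only *Slc34a1* was higher than the scaffolds among the 10 genes in both sexes, and *Slc9a3r1* was above *Pdzk1* in 4 of 5 males and 5 of 5 females although their ranges overlapped.

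*Pth1r*, the receptor for parathyroid hormone and its related peptide, lies on chromosome 8 from 118988053 to 119012671 on the minus strand (ENSRNOG00000020948). It stood at 155, 164, 158, 137 and 123 FPKM in males and at 118, 113, 161, 186 and 157 FPKM in females. Females 1 and 2 and male 5 were the lowest, as for *Slc34a1*. The means were 147 ± 17.0 and 147 ± 30.6 FPKM (SD, n = 5 each, two-sided exact permutation test, p = 0.976), with an interval of the log2 fold change of -0.34 to 0.30.

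*Fgfr1*, the FGF receptor through which FGF23 with Klotho is held to act in the kidney, lies on chromosome 16 from 71266248 to 71319449 on the minus strand (ENSRNOG00000016050), and a small nucleolar RNA gene overlaps it on the other strand. It stood at 38.4, 34.9, 37.6, 42.5 and 32.4 FPKM in males and at 35.4, 33.3, 35.5, 34.0 and 35.1 FPKM in females. The females were closer together than the males, with a coefficient of variation of 2.70% against 10.3%. The means of 37.2 ± 3.81 and 34.7 ± 0.937 FPKM gave a log2 fold change of -0.09, with an interval of -0.27 to 0.08 (SD, n = 5 each, two-sided exact permutation test of the means, p = 0.206). The exact p was 0.0317 without male 5, the male with the lowest value. The limma adjusted p was 0.629 with all rats, 0.389 without male 5 and up to 0.834 without other rats.

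By mean level, the order in males was *Slc34a1*, *Slc9a3r1*, *Pdzk1*, *Pth1r*, *Slc34a3*, *Slc34a2*, *Fgfr1*, *Slc20a1*, *Xpr1* and *Slc20a2*. Neighbours whose ranges overlapped in males were *Slc9a3r1* and *Pdzk1*, *Slc34a3* and *Slc34a2*, *Slc34a2* and *Fgfr1*, and *Slc20a1* and *Xpr1*. In females *Fgfr1* came before *Slc34a2* and the order was otherwise the same. Overlapping neighbours in females were *Slc9a3r1* and *Pdzk1*, *Pth1r* and *Slc34a3*, *Fgfr1* and *Slc34a2*, *Slc34a2* and *Slc20a1*, and *Slc20a1* and *Xpr1*.

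**Figure D2:**
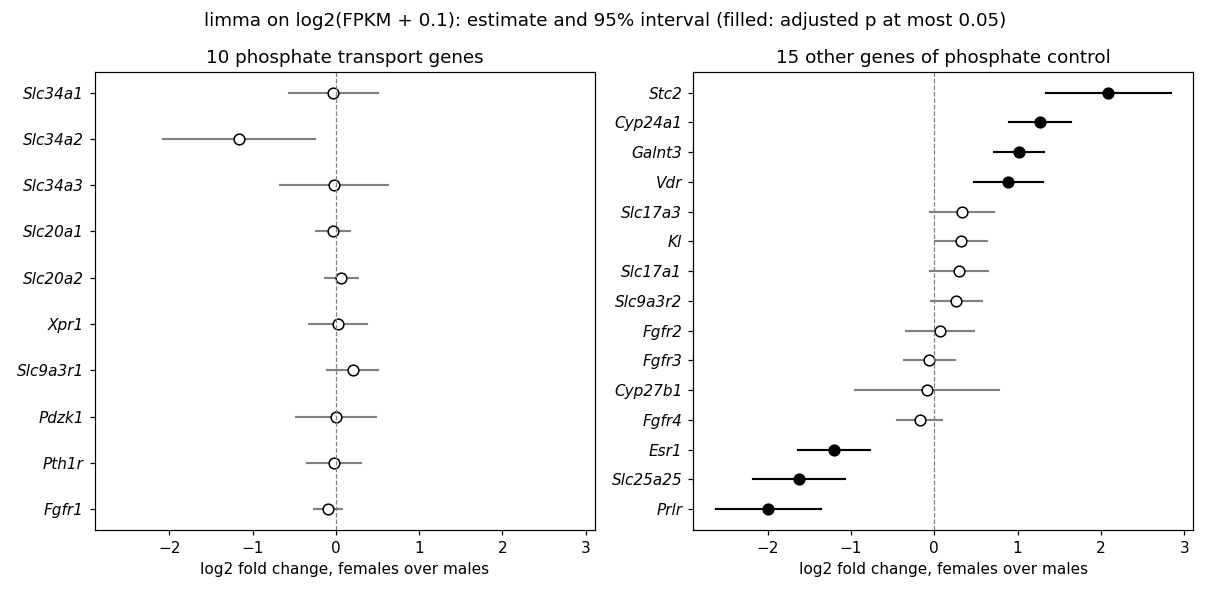
Log2 fold change of females over males from limma on log2(FPKM + 0.1), with its 95% interval, for the 10 phosphate transport genes (left) and for 15 other genes of phosphate control (right). Filled points have an adjusted p of at most 0.05. None of the 10 is filled, and only the interval of *Slc34a2* lies clear of 0. On the right 4 genes are filled above 0 and 3 below 0.

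Several of the 10 genes rose and fell together between rats of the same sex. Over the 10 rats, log2 levels of *Slc34a3* had a Pearson r of 0.96 with those of *Slc34a1* (permutation p = 2e-05, adjusted 0.000435) and a Spearman rho of 0.95 (permutation p = 0.0001, adjusted 0.0029). For *Pth1r* the r with *Slc34a1* was 0.96 (permutation p = 8e-05, adjusted 0.00058) and the rho 0.92 (permutation p = 0.00049, adjusted 0.00541). For *Pdzk1* the r was 0.91 (permutation p = 3e-05, adjusted 0.000435) and the rho 0.88 (permutation p = 0.0015, adjusted 0.0087). These are a second brush border carrier, a hormone receptor and a scaffold. Without male 5 and female 2, the rats farthest from the median of *Slc34a1*, the r of *Slc34a3* and *Pth1r* was 0.95 and that of *Pdzk1* was 0.82. Within males the r was 0.96, 0.94 and 0.95 for *Slc34a3*, *Pth1r* and *Pdzk1*, and within females 0.99, 0.99 and 0.92.

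The other genes followed *Slc34a1* less closely or not at all. *Slc9a3r1* had an r of 0.65 and a rho of 0.59 with *Slc34a1* (permutation p = 0.0475 and 0.0803, adjusted 0.0870 and 0.131), with an r of 0.48 within males and 0.90 within females. The pooled r fell to 0.23 without male 5 and female 2, so it rests on those rats. *Xpr1* had an r of 0.51 and a rho of 0.60 (permutation p = 0.133 and 0.0748, adjusted 0.215 and 0.131). *Slc34a2* had a negative r of -0.51 and a rho of -0.62 (permutation p = 0.124 and 0.0594, adjusted 0.211 and 0.115), and with an r of -0.74 within males and -0.75 within females. *Slc20a1*, *Slc20a2* and *Fgfr1* had an r of -0.38, -0.10 and 0.29 and a rho of -0.49, -0.04 and 0.26 (permutation p from 0.157 to 0.917, adjusted 0.239 to 0.918).

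**Figure D3:**
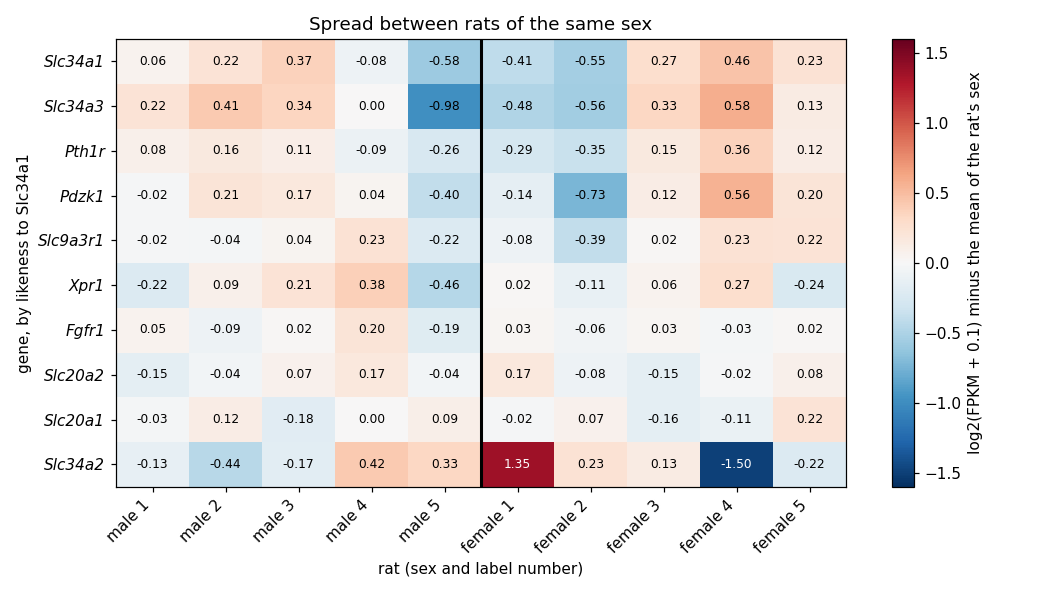
Log2(FPKM + 0.1) of the 10 genes in each rat (columns) minus the mean of the rat's own sex, with genes ordered by likeness to *Slc34a1*. Red is above and blue below the mean of the sex. *Slc34a1*, *Slc34a3*, *Pth1r* and *Pdzk1* are low together in male 5 and females 1 and 2, while *Slc34a2* is high in female 1 (1.35) and low in female 4 (-1.50).

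The mean level of the proximal tubule markers moved along with the same genes, although not every marker did. The mean log2 level of these 10 markers had an r of 0.93 with *Pdzk1*, 0.89 with *Slc34a1*, 0.88 with *Slc34a3*, 0.81 with *Pth1r* and 0.78 with *Slc9a3r1* (permutation p from 6e-05 to 0.00774, adjusted 0.00058 to 0.0249). The rho was 0.88, 0.85, 0.78, 0.75 and 0.76 in that order (permutation p from 0.00137 to 0.0175, adjusted 0.0087 to 0.0391). Without male 5 and female 2, which had the lowest marker levels, the r was 0.84, 0.72, 0.62, 0.63 and 0.46. Within males these 5 genes had an r of 0.77 to 0.96, and within females of 0.84 to 0.99. *Xpr1* had an r of 0.70 and a rho of 0.68 with the markers (permutation p = 0.0249 and 0.0354, adjusted 0.0601 and 0.0734). Its r was 0.53 without male 5 and female 2, 0.90 within males and 0.43 within females. The remaining genes did not follow the markers closely. *Slc34a2*, *Slc20a1*, *Slc20a2* and *Fgfr1* had an r of -0.36, -0.34, 0.31 and 0.48 (permutation p from 0.153 to 0.388, adjusted 0.233 to 0.469). Taken singly, as deviations from the sex means, the markers had an r with *Slc34a1* from 0.97 for *Slc13a3* to 0.57 for *Aqp1*, 0.42 for *Cubn* and -0.37 for *Ggt1*. The 4 principal cell markers had an r of 0.91 (*Aqp3*), 0.62 (*Avpr2*), 0.51 (*Aqp2*) and -0.06 (*Scnn1g*). Libraries share the scaling of FPKM, and the part of tubule content in these relations was not tested. Against the injured tubule markers, *Pth1r* had an r of -0.72 and a rho of -0.81 (permutation p = 0.0127 and 0.0072, adjusted 0.0334 and 0.0232), and *Slc34a1* an r of -0.66 and a rho of -0.84 (permutation p = 0.0298 and 0.00326, adjusted 0.0665 and 0.0135). Without females 4 and 5 the r was -0.61 for *Pth1r* and -0.65 for *Slc34a1*, and within the sexes it was -0.98 and -0.90 in males and -0.89 and -0.84 in females. *Pdzk1* and *Slc34a3* had an r of -0.69 and -0.63 (permutation p = 0.0347 and 0.0480, adjusted 0.0718 and 0.0870) and a rho of -0.82 and -0.79 (permutation p = 0.00586 and 0.00837, adjusted 0.0212 and 0.0243), and without females 4 and 5 the r was -0.44 and -0.71. The r of *Slc9a3r1* was -0.72 with a rho of -0.59 (permutation p = 0.0116 and 0.0814, adjusted 0.0334 and 0.131). This r was -0.30 without females 4 and 5, so it rests on those rats. *Xpr1*, *Slc20a1*, *Slc20a2* and *Fgfr1* had an r of -0.31, 0.24, -0.05 and 0.27 with the injured tubule markers (permutation p from 0.381 to 0.907, adjusted 0.469 to 0.907). Markers of other cell types also had an r with *Slc34a1*, as deviations from the sex means, in both directions. It was -0.85, -0.43, -0.40 and -0.19 for the fibroblast markers *Dcn*, *Pdgfrb*, *Col3a1* and *Col1a1*. It was -0.81, -0.81, -0.80, -0.60 and -0.56 for the leukocyte markers *Ptprc*, *Cd68*, *Csf1r*, *Cd3e* and *Cd79a*. The injured tubule markers *Lcn2*, *Spp1*, *Havcr1* and *Vcam1* had -0.82, -0.78, -0.71 and -0.70. The other lists held values on both sides of 0 or near it, from -0.34 (*Atp6v0d2*) to 0.61 (*Slc4a1*) for intercalated cells, from -0.08 (*Trpm6*) to 0.44 (*Slc12a3*) for the distal convoluted tubule, from -0.62 (*Cdh5*) to 0.02 (*Kdr*) for endothelium and from 0.09 (*Podxl*) to 0.29 (*Wt1*) for podocytes. The thick ascending limb markers were all below 0, from -0.60 (*Cldn19*) to -0.08 (*Umod*).

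**Figure D4:**
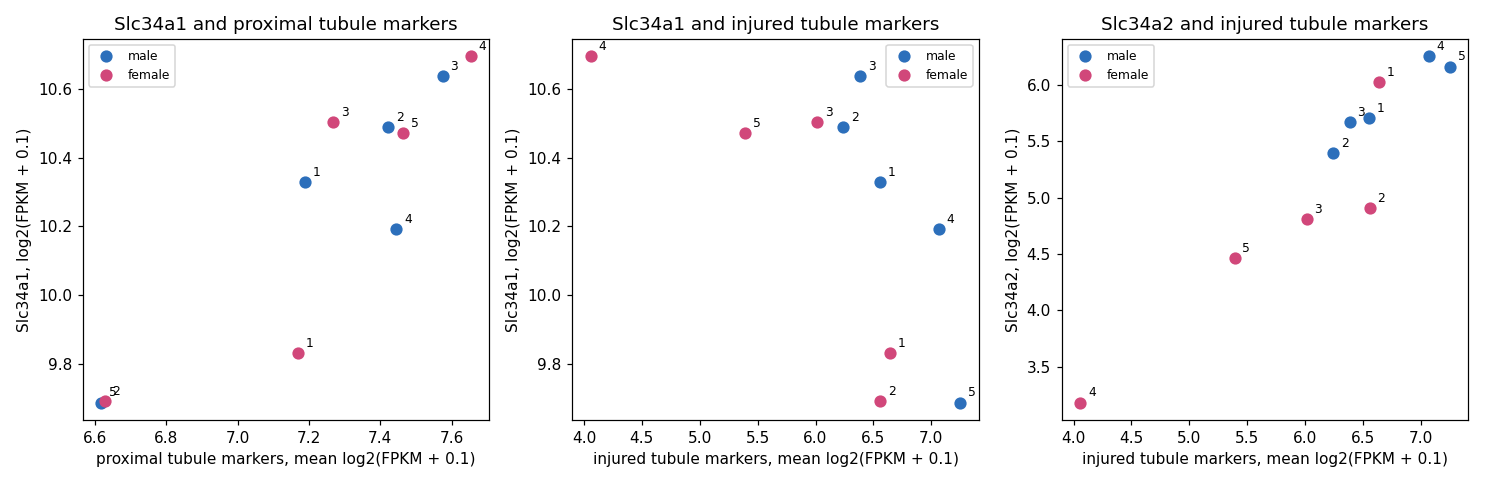
Log2(FPKM + 0.1) of *Slc34a1* against the mean of 10 proximal tubule markers (left), of *Slc34a1* against the mean of 4 injured tubule markers (middle) and of *Slc34a2* against the injured tubule markers (right). Each point is a rat, coloured by sex and numbered as labelled. The Pearson r is 0.89, -0.66 and 0.95 from left to right, and female 4 stands at the low end of the injured tubule markers.

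Among the 13362 genes averaging 1 FPKM or more, those whose deviations from the sex means were most like those of *Slc34a1* were *Scpep1*, *Cntnap1*, *Apbb2*, *Amn* and *Neurl2*, with a Pearson r of 0.99 each over 10 libraries. *Amn* encodes amnionless, the partner of cubilin in the proximal tubule brush border. *Slc34a3* ranked 34 and *Pth1r* 35 in this order, *Pdzk1* 223 and *Slc9a3r1* 1274, while *Slc20a1* ranked 9629 and *Slc34a2* 12131. The ranks are a description of these libraries.

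Other genes of phosphate control were read from lists of 68 symbols, which met 69 rows of the table, as *Shank2* and *Gnas* are listed under 2 identifiers each and *Pthlh* was not analysed here. Of the 60 rows that passed the filter, 7 passed the adjusted threshold in limma, with 4 higher and 3 lower in females, and the median log2 fold change was 0.05. Over all genes tested, 2.40% passed, 1.26% higher and 1.14% lower. The ranges of the sexes did not overlap for 8 of the 60 rows, against 5.10% of all genes. At an unadjusted p under 0.05 there were 9 higher and 6 lower, against 7.67% and 8.07% of all genes.

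Of 13 tested genes of the hormone axis, 2 rose in females relative to males and none fell, where 1.26% of all genes rose and 1.14% fell. *Galnt3*, whose enzyme glycosylates FGF23 and protects it from cleavage in bone, stood at 5.62 ± 0.532 FPKM in males against 11.6 ± 2.34 FPKM in females (SD, n = 5 each), which is a rise of 1.02 on the log2 scale (limma adjusted p = 0.00233). *Stc2*, a stanniocalcin, ranged from 1.25 to 1.75 FPKM over the males and from 3.01 to 11.3 FPKM over the females, a rise of 2.09 on the log2 scale (limma adjusted p = 0.00797). The females of *Stc2* were widely spread but all above the males. The coreceptor *Kl* had 65.7 ± 12.2 and 81.4 ± 11.2 FPKM (SD, n = 5 each), for a log2 ratio of 0.32 with an interval of 0.0025 to 0.63 (limma adjusted p = 0.315). The other FGF receptors were below *Fgfr1* in level and did not pass the test, at 5.14 and 5.60 FPKM for *Fgfr2*, 15.8 and 15.1 FPKM for *Fgfr3*, and 16.6 and 14.9 FPKM for *Fgfr4* as means of males and females (limma adjusted p = 0.907, 0.882 and 0.547). Of the hormones themselves, *Pth* had 0 reads in every library, and *Fgf23*, known mainly as a product of bone, had 4 to 16 reads in males and 0 to 27 in females (limma adjusted p = 0.700). No read fell on *Klb* or *Pth2r* either.

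Of 4 tested genes of vitamin D handling, 2 rose in females (1.26% of all genes). *Cyp24a1*, which breaks down active vitamin D, rose by 1.27 on the log2 scale (limma adjusted p = 0.00224). *Vdr*, the vitamin D receptor, stood at 41.2, 38.9, 53.6, 37.5 and 29.0 FPKM in males and at 64.6, 54.0, 86.9, 98.6 and 68.4 FPKM in females, so that female 2 lay just above male 3. Its log2 fold change was 0.89 (limma adjusted p = 0.0313). The *Vdr* call held in 2 of 10 fits that each left out a rat, where the adjusted p went up to 0.0791 (without male 2), and in 8 of 10 other settings. *Cyp27b1*, which makes active vitamin D, had only 2 to 18 reads per library (limma adjusted p = 0.946).

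None of 8 tested genes of the brush border scaffold, 15 rows of receptor signalling or 4 kinases of inositol pyrophosphates, the messengers that bind the SPX domain of XPR1, passed the adjusted threshold, which 2.40% of all genes passed. At an unadjusted p under 0.05 there were 1, 1 and 0, against 15.7% of all genes. The scaffold *Slc9a3r2* (NHERF2) stood at 29.7 ± 4.81 and 35.9 ± 6.0 FPKM (SD, n = 5 each, limma adjusted p = 0.402). Of 11 tested other carriers and phosphate genes, 1 fell in females (1.14% of all genes), *Slc25a25*, a mitochondrial carrier of ATP-Mg and phosphate. It ranged from 12.3 to 34.1 FPKM over the males and from 4.87 to 8.57 FPKM over the females, with a log2 ratio of -1.63 (limma adjusted p = 0.00580). *Slc17a1* and *Slc17a3*, first described as phosphate carriers and now known for urate transport, did not pass, with log2 fold changes of 0.30 and 0.33 (limma adjusted p = 0.402 and 0.392).

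Of 5 tested receptors for sex and growth hormones, 2 fell in females and none rose (1.14% and 1.26% of all genes). *Prlr*, the prolactin receptor, stood at 12.8, 16.5, 12.2, 35.8 and 20.8 FPKM in males and at 5.94, 3.18, 3.73, 5.67 and 4.44 FPKM in females, for a log2 ratio of -1.99 (limma adjusted p = 0.00369). *Esr1*, an estrogen receptor, had 5.50 ± 0.826 and 2.40 ± 0.791 FPKM (SD, n = 5 each) and a log2 ratio of -1.20 (limma adjusted p = 0.00793). *Esr2* had no read in any library.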

How the data were processed

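RNA from kidney cortex of 10 PCK rats, 5 of each sex, was isolated with TRIzol and sequenced on an Illumina platform after selection of poly-A RNA. The authors' provider mapped the reads with HISAT2 to Ensembl Rnor_6.0, and the authors deposited the resulting FPKM as 1 table. The submitters' processing notes name fastp, HISAT2 2.0.5, StringTie 1.3.3b and featureCounts 1.5.0-p3, and the strand setting is not given in the sources used here. The authors tested with DESeq2 on counts that were not used here.

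Samples were grouped by the sex in their labels. FPKM over the value of a single read at the deposited gene length was whole (within 0.001) for 100% of values, which gave the depth. The test over all genes was limma (lmFit, eBayes with trend) on log2(FPKM + 0.1) for genes averaging 0.1 FPKM or more, with Benjamini-Hochberg adjustment over 17631 genes. Fold changes on this scale understate changes of low genes. Single genes had an exact permutation test, two-sided, and correlations had 100000 permutations of the rats, made without regard to sex. Litters are not mapped, so p-values measure the spread between these rats. Both tests were tested on simulated data. The closest pair of libraries of 1 sex had a ratio of chi-square to degrees of freedom of 9.71, so no library was a copy of another of its sex.

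The 10 genes and the other lists were chosen with earlier results of these data known. Named whatever their values were the 10 genes, *Kl*, *Fgfr2*, *Fgfr3*, *Fgfr4*, *Fgf23*, *Pth*, *Slc9a3r2*, *Cyp27b1*, *Cyp24a1*, *Vdr*, *Slc17a1* and *Slc17a3*. Also named were every gene of the other phosphate lists, not of the marker lists, with a limma adjusted p of at most 0.05, and the 5 genes most like *Slc34a1*. Single marker genes, *Klb*, *Pth2r* and *Esr2* were named after their values were seen.

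Alternatives were pseudocounts of 1 and 0.01, no filter or a stricter one (mean of 1 FPKM), scaling by median ratios, quantile normalization, other eBayes settings, the replicate number as a block, limma-voom on the recovered reads, reads scaled to the total outside mitochondrial genes, and leaving out each library. Software was limma 3.58.1 in R 4.3.3, with scipy 1.17.1, pandas 2.3.3 and numpy 2.4.6 in Python 3.11.15.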

Additional observations from a re-analysis of the deposited data

How the results depend on the processing

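Of the 10 phosphate transport genes, 0 were called in any of the 10 alternative limma settings or the 10 fits that each left out a library, and of the other phosphate genes 6 to 8 were called in these fits. Median-ratio scaling could not change a value, since its factor was 1.01 in each library. Over all genes, 223 were higher and 201 lower in females. With the replicate block these counts were 119 and 112, and without single libraries they ran from 134 to 282 and from 121 to 261. The replicate numbers do not pair the samples: deviations of equally numbered rats correlated between -0.10 and 0.07, and no rat matched best with its own number. The block ended the call of *Vdr* (limma adjusted p = 0.0508), as did eBayes without trend (0.0566), and changed the count of called members not at all. *Pdzk1*, whose log2 fold change is near 0, turned to -0.059 with quantile normalization and -0.0033 with limma-voom on recovered reads. The difference in *Xpr1* turned to -0.506 when reads were scaled to the total outside mitochondrial genes, where the unit is no longer FPKM. Leaving out single libraries turned the sign of the log2 fold change for *Slc34a1* (-0.17 to 0.11), *Slc34a3* (-0.27 to 0.12), *Slc20a1* (-0.090 to 0.0049), *Xpr1* (-0.088 to 0.12), *Pdzk1* (-0.14 to 0.18) and *Pth1r* (-0.11 to 0.067), while *Slc20a2* kept its sign (0.024 to 0.11). In FPKM, the difference of the means, females minus males, then ran from -118 to 98.4 for *Slc34a1*, -36.4 to -22.3 for *Slc34a2*, -13.1 to 5.69 for *Slc34a3*, -1.0 to 0.0687 for *Slc20a1*, 0.146 to 0.733 for *Slc20a2*, -1.06 to 1.13 for *Xpr1*, 39.5 to 81.8 for *Slc9a3r1*, -23.8 to 46.0 for *Pdzk1*, -10.1 to 8.10 for *Pth1r* and -3.67 to -1.15 for *Fgfr1*. The cause of these moves was not tested. With 5 rats of each sex, a gene that was not called may still differ by any amount inside its interval, and no detection limit was computed. Litters, age and cell composition were not modelled.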
